A study of Rattus norvegicus with 22 samples.

Results

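The 10 genes described here are antiviral effectors that interferon switches on: Isg15, Usp18, Irf7, Mx1, Mx2, Oas1a, Oasl, Rsad2, Ifit2 and Ifit3. They are 10 of 26276 gene names on an Agilent rat expression array, found by matching the gene name in the array files without regard to case, and 11 probes with 2 spots each report them. The genes were chosen by name after earlier results of these same arrays were known, and in particular were selected on the higher ratios of Isg15 and Irf7 at 14 months. Differences between 3 and 14 months are therefore given as a description without a test, while differences between diets were tested.

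Liver RNA of male Sprague-Dawley rats was measured, 1 array per rat. Control rats ate a semi-synthetic diet for 3 months (CD 3, n = 5) or 14 months (CD 14, n = 6). BASE-diet rats ate that diet with salmon fat in place of lard (6%), a linden inflorescence extract (8%), pumpkin puree (8%) and 2 probiotic strains (1%) for 3 months (BD 3, n = 5) or 14 months (BD 14, n = 6). Every array carried the rat's RNA in the red dye Cy5 against a common liver reference in the green dye Cy3, pooled from healthy 10-week rats kept outside the experiment, with no dye swap. A log2 ratio of 0 means equal processed signal in the 2 channels, and all 22 rats share that reference. Without a dye swap, a dye difference at a probe cannot be told apart from a difference between rat and reference. The same dyes were used in all groups, so the values compared are differences between groups. The age of the rats and the time on the diet ran together in all groups.

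Type I and type III interferons are signals that cells release when sensors in the cytosol or in endosomes meet foreign nucleic acid. Their receptors act through JAK kinases on transcription factors, IRF9 among them, that bind the interferon-stimulated response element in the promoters of many target genes. Type II interferon switches on an overlapping group. Among the targets are proteins that block viruses directly, as well as regulators such as IRF7, which amplifies interferon production, and USP18, which restrains the receptor. In liver both hepatocytes and the resident macrophages, the Kupffer cells, carry these receptors.

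The probes of Isg15 and Irf7, the genes the choice was based on, are shown so that what was hybridised is plain. Positions are those of the rn4 build in the files, both on the minus strand, at chr5:173034674-173034733 for Isg15 and chr1:201456889-201456948 for Irf7, and the letters are written 5′ to 3′ as deposited.
Isg15 probe: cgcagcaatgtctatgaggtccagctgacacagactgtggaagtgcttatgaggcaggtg
Irf7 probe: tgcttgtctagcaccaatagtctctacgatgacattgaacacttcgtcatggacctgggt

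Promoter windows from RefSeq (build GRCr8, 250 bases before to 50 after the gene's start) were found for 6 of the 10 genes. The core of the interferon-stimulated response element, GAAA followed by any 2 bases and GAAA on either strand, stood in 4 of these 6, in Irf7, Oas1a, Rsad2 and Ifit3. It was found in 3.92% of all 33469 promoter windows of the table, and in 30 of 40 windows of other interferon-stimulated genes. Mx1 and Oasl had no match in the window. The stretches around the matches are shown on the gene's strand with the matching bases in capitals, because they are what these genes share beyond their names. They lie at chr1:205800038-205800137 (minus strand) for Irf7, chr12:41330380-41330465 (plus strand) for Oas1a, chr6:48788213-48788312 (minus strand) for Rsad2 and chr1:241527237-241527325 (plus strand) for Ifit3.
Irf7 promoter: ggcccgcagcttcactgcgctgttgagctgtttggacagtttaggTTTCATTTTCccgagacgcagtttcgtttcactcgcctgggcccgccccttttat
Oas1a promoter: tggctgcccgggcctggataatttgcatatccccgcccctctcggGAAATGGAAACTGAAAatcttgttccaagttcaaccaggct
Rsad2 promoter: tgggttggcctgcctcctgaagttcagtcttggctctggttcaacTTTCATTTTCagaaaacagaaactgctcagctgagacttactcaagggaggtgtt
Ifit3 promoter: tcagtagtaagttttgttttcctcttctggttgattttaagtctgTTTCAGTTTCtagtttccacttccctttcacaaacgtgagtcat
In Oas1a 2 matches overlap and share their middle GAAA, beginning 41 and 35 bases before the start. The match of Ifit3 began 44 bases, that of Irf7 69 bases and that of Rsad2 147 bases before the start, and these 3 read on the opposite strand. A match in the letters is a description of the window and was not measured as binding.

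Signal over background stands in for depth on arrays, and between 52.4% and 93.6% of the spots per array were well above background in Cy5. Of the 11 probes, 8 were above background in both channels on all 22 arrays. CD 3 rat 1 and CD 14 rat 1 stood apart with 4.44% and 4.05% of spots flagged as non-uniform, against at most 0.063% on the other 20 arrays, and values without them are given where they matter. The arrays lay on 5 slides that did not balance the groups, with all 6 BD 14 arrays on 1 slide. Since each group has 5 or 6 arrays, their number limits the precision of every value below. Liver is a mixture of cells, and a lower ratio from fewer cells of a type cannot be told apart from less RNA per cell.

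All 10 genes had higher mean log2 ratios at 14 than at 3 months in both diets. The differences ran from 0.49 to 1.71 on control diet, with a median of 1.08 (0.80 without CD 3 rat 1 and CD 14 rat 1), and from 0.19 to 2.30 on BASE-diet, with a median of 1.31. Over all 19434 probes tested the median difference was 0.03 on control diet and 0.07 on BASE-diet. In both diets 36.1% of all probes were higher at 14 months. No probe of the array passed an adjusted p of 0.05 between the times (limma, Benjamini-Hochberg over all probes; 0% called on control diet and 0% on BASE-diet), so 0 of the 10 genes did. Without that adjustment limma gave 10.1% of all probes a p under 0.05 on control diet and 7.44% on BASE-diet, and no such count is given for the genes, since this comparison chose them.

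**Figure D1:**
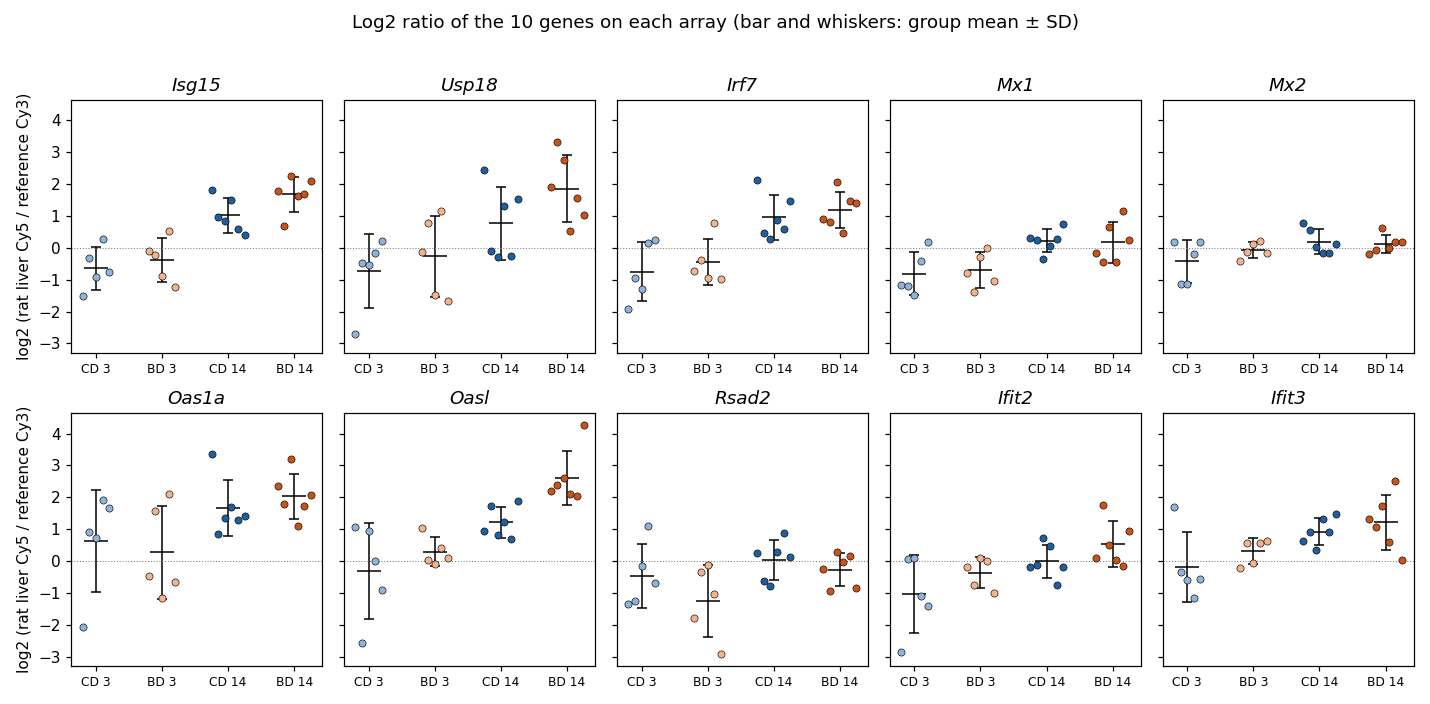
Log2 ratio of rat liver (Cy5) to the common reference (Cy3) on each array for the 10 genes, 1 point per rat, by group (CD 3 and BD 3, n = 5; CD 14 and BD 14, n = 6), with the group mean and SD as bar and whiskers. Isg15 shows the cleanest step, with 11 of 12 rats at 14 months above every rat at 3 months, whereas Rsad2 has 0 of 12.

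ISG15 is a ubiquitin-like protein that is joined to other proteins during the antiviral response. Its log2 ratio in CD 3 rats 1 to 5 was -1.51, -0.31, -0.91, 0.28 and -0.76. In BD 3 rats 1 to 5 it was -0.10, -0.24, -0.89, 0.52 and -1.22. At 14 months the lowest, median and highest ratios were 0.39, 0.91 and 1.82 in CD 14 and 0.68, 1.73 and 2.24 in BD 14. Every rat at 14 months was above 0 and 11 of 12 exceeded the highest rat at 3 months, which was BD 3 rat 4. Within either diet the times did not overlap. The mean lay below 0 at 3 months (-0.64 ± 0.67, SD, n = 5, in CD 3, and -0.39 ± 0.68, n = 5, in BD 3). It lay above 0 at 14 months (1.02 ± 0.55, n = 6, in CD 14, and 1.69 ± 0.55, n = 6, in BD 14). This is a difference of 1.66 ± 0.35 (SE), or 3.17-fold, on control diet and 2.07 ± 0.35, or 4.21-fold, on BASE-diet. Leaving out each array in turn kept the differences between 1.45 and 1.89 and between 1.86 and 2.30, and without both arrays that stood apart the former was 1.29.

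The signals behind the Isg15 ratios are given by channel as a description. Median Cy5 signal was 344 and 477 at 3 months and 1396 and 1954 at 14 months, on control diet and BASE-diet respectively (processed intensity, arbitrary units). The Cy3 signal of the reference, which is the same RNA on every array, had medians of 582 and 600 at 3 months and 715 and 628 at 14 months. The Cy5 ranges of 3 and 14 months did not meet, with at most 859 at 3 months and at least 966 at 14 months. These signals are not scaled between arrays, whose median Cy5 over all spots ran from 44.2 to 130.3 in CD 3 and from 67.3 to 165 in CD 14. After quantile normalization the Cy5 channel alone gave 1.97 ± 0.44 on control diet and 2.14 ± 0.44 on BASE-diet.

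Irf7 encodes the transcription factor that drives the later, amplifying wave of interferon production. Its log2 ratio was -1.92, -0.94, -1.28, 0.15 and 0.25 in CD 3 rats 1 to 5. BD 3 rats 1 to 5 had -0.74, -0.38, -0.94, 0.77 and -0.97. The lowest, median and highest were 0.27, 0.72 and 2.12 in CD 14 and 0.48, 1.16 and 2.08 in BD 14. On control diet the times did not overlap, although the gap between CD 3 rat 5 and the lowest CD 14 rat was only 0.25 against 0.27, and on BASE-diet BD 3 rat 4 lay among the BD 14 rats. Group means at 3 months were -0.75 ± 0.94 (CD 3) and -0.45 ± 0.72 (BD 3), and at 14 months 0.96 ± 0.70 (CD 14) and 1.19 ± 0.57 (BD 14), each with its SD. The difference between times was 1.71 ± 0.42 on control diet (3.27-fold) and 1.65 ± 0.42 on BASE-diet (3.13-fold). Without the 2 arrays that stood apart it was 1.18 on control diet. Median Cy5 was 431 and 481 at 3 months and 1626 and 1787 at 14 months, while median Cy3 was 789 and 807, then 1046 and 749, control diet first.

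USP18 removes ISG15 from its targets and dampens signalling at the interferon receptor. By its brighter probe the ratios were -2.71, -0.47, -0.55, -0.15 and 0.23 in CD 3 rats 1 to 5 and -0.14, 0.79, -1.49, 1.15 and -1.67 in BD 3 rats 1 to 5. They ran from -0.29 over a median of 0.60 to 2.44 in CD 14, and from 0.52 over 1.74 to 3.33 in BD 14. The times overlapped in either diet, with 7 of 12 rats at 14 months above every rat at 3 months. The difference was 1.50 ± 0.65 on control diet and 2.13 ± 0.65 on BASE-diet. Its other probe gave 1.72 ± 0.42 on BASE-diet but 0.20 ± 0.42 on control diet. The probes disagreed most on CD 3 rat 1, one of the arrays that stood apart, where they read -2.71 and 1.20. Without that rat the brighter probe's difference on control diet was 1.01, and without both such arrays 0.67. The same difference was 0.94 with normexp and loess, 2.26 in the Cy5 channel alone and 2.79 with the slide as a block.

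**Figure D2:**
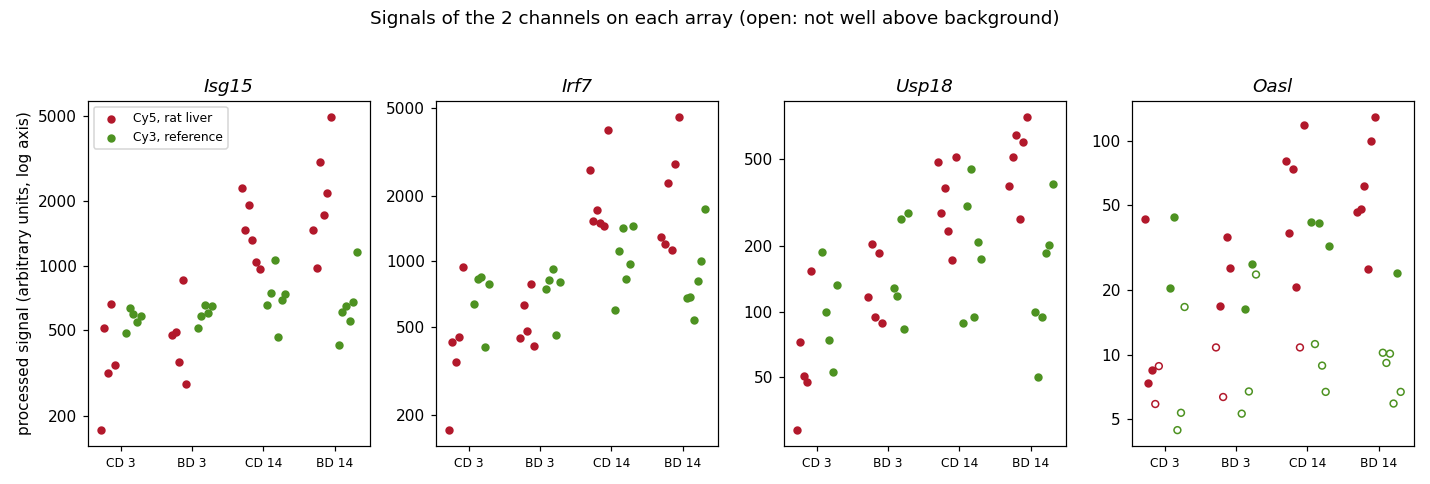
Processed signal of the rat's channel (Cy5, red) and the reference channel (Cy3, green) on each array for Isg15, Irf7, Usp18 and Oasl, on log axes that differ between genes, with open points where the signal was not well above background. For Isg15 the red points at 14 months lie at 966 or more and those at 3 months at 859 or less, whereas most reference values of Oasl are open.

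Mx1 and Mx2 encode dynamin-like GTPases that trap viral components. Mx1 averaged -0.81 ± 0.68 (CD 3) and -0.70 ± 0.56 (BD 3) at 3 months, against 0.21 ± 0.36 (CD 14) and 0.17 ± 0.65 (BD 14) at 14 months, with SD. The difference between times was 1.03 ± 0.33 on control diet and 0.87 ± 0.33 on BASE-diet, with 7 of 12 rats at 14 months above every rat at 3 months. With the slide as a block these were 0.58 and 0.52. Mx2 lay within a narrow band, from -1.15 to 0.77 over all 22 rats, and gave 0.62 ± 0.26 and 0.19 ± 0.26. The latter was 0.11 without BD 3 rat 1 and 0.10 without BD 14 rat 3. CD 3 rats 2 and 3, at -1.15 and -1.13, were far below the rest of Mx2. On BASE-diet it was also 0.63 in the Cy5 channel alone, 0.68 with the slide as a block and 0.37 with the slide as a random block. With the slide as a block the difference of Mx2 on control diet was -0.06, the only value of a gene of the 10 at or below 0 between the times under any alternative run.

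Oas1a and Oasl belong to the family of oligoadenylate synthetases, which answer double-stranded RNA. Oas1a had the largest SD of the 10 genes at 3 months, 1.60 in CD 3 and 1.46 in BD 3, and ran from -2.08 to 1.92 in CD 3 and from -1.17 to 2.11 in BD 3. At 14 months it ran from 0.84 to 3.35 in CD 14 and from 1.09 to 3.19 in BD 14, so that the times overlapped although all 12 older rats were above 0. The difference was 1.03 ± 0.66 on control diet and 1.76 ± 0.66 on BASE-diet. The former moved with the arrays that stood apart, CD 3 rat 1 (-2.08) and CD 14 rat 1 (3.35), and was 0.35 without the first, 0.69 without the second and 0.01 without both. Under other processing it was 2.23 in the Cy5 channel alone, 1.97 with the slide as a block, 1.14 with the slide as a random block and 0.95 with normexp and loess.

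Oasl gave the largest difference of the 10 on BASE-diet and was well above background on the fewest arrays. Its ratio was 1.07, -2.58, 0.93, -0.01 and -0.92 in CD 3 rats 1 to 5 and 1.03, 0.04, -0.09, 0.41 and 0.10 in BD 3 rats 1 to 5. In CD 14 it ran from 0.69 over a median of 1.08 to 1.88, and in BD 14 from 2.04 over 2.29 to 4.28. The difference was 1.51 ± 0.51 on control diet, or 0.95 without CD 3 rat 2, and 2.30 ± 0.51 on BASE-diet, where the times did not overlap. The rat's signal was well above background on 3 of 5 arrays of each 3-month group, on 5 of 6 in CD 14 and on 6 of 6 in BD 14. The reference was so on 2 arrays of each 3-month group, 3 in CD 14 and 1 in BD 14, so most of these ratios were taken against a signal near background. Oasl thus entered the fit only through BD 14, the group where it is high, and its differences against BD 14 are values, not support for a difference. With normexp background correction and loess the differences were 0.48 and 0.58 in place of 1.51 and 2.30.

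RSAD2, also called viperin, is an enzyme that makes a chain-terminating nucleotide. Rsad2 overlapped most between the times: 0 of 12 rats at 14 months exceeded the highest rat at 3 months, CD 3 rat 4 at 1.09. Its means at 3 months were -0.47 ± 1.00 (CD 3) and -1.25 ± 1.14 (BD 3), with SD. At 14 months they were 0.02 ± 0.63 (CD 14) and -0.27 ± 0.51 (BD 14), within their spread of 0. The difference was 0.49 ± 0.48 on control diet and 0.98 ± 0.48 on BASE-diet, and both moved with single rats and with the processing. On control diet it was 0.27 without CD 3 rat 1, 0.29 without CD 3 rat 2, 0.88 without CD 3 rat 4, 0.32 without CD 14 rat 5 and 0.22 without the 2 arrays that stood apart. On BASE-diet it was 0.56 without BD 3 rat 5. Blocking by slide gave 1.02 on control diet and 0.05 ± 0.87 on BASE-diet.

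IFIT2 and IFIT3 bind RNA and one another and hinder its translation. Ifit2 averaged -1.05 ± 1.23 (CD 3) and -0.36 ± 0.48 (BD 3) at 3 months, and -0.01 ± 0.53 (CD 14) and 0.53 ± 0.72 (BD 14) at 14 months, with SD. Its difference was 1.03 ± 0.45 on control diet and 0.90 ± 0.45 on BASE-diet. Ifit3 differed by 1.12 ± 0.43 and 0.91 ± 0.43. Without the 2 arrays that stood apart, the control diet values were 0.62 for Ifit2 and 1.66 for Ifit3, and without CD 3 rat 1 alone Ifit2 had 0.58. CD 3 rat 1 stood at opposite ends of these neighbouring genes, with the lowest Ifit2 ratio of all rats (-2.87) and an Ifit3 ratio of 1.71 where the other CD 3 rats lay between -1.16 and -0.35. Under normexp and loess the difference of Ifit3 was 0.21 on control diet and 0.24 on BASE-diet. Cy5 alone gave 0.59 for BD 14 against BD 3. The slide as a block gave 0.45 for Ifit3 and 2.01 for Ifit2 on control diet.

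**Figure D3:**
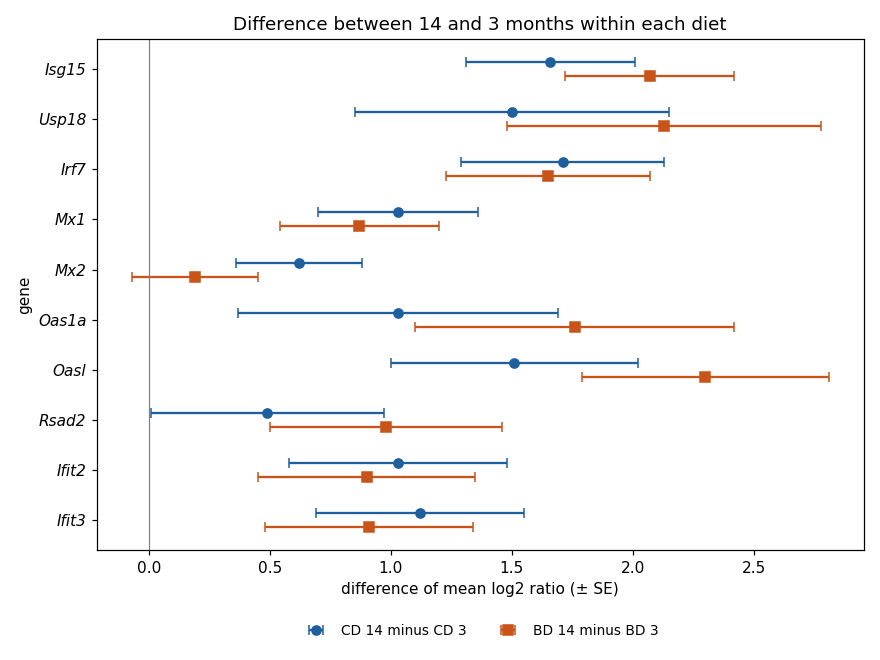
Difference of the mean log2 ratio between 14 and 3 months for each of the 10 genes, on control diet (circles) and on BASE-diet (squares), with the standard error of the fit as whiskers. All 20 points lie to the right of 0, from 0.19 for Mx2 on BASE-diet to 2.30 for Oasl on BASE-diet.

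The groups of the 2 times did not overlap for 2 of the 10 genes on control diet, Isg15 and Irf7, where 0.283% of all probes were higher at 14 months without overlap. They did not overlap for 2 on BASE-diet, Isg15 and Oasl, where that share was 1.18% and where Oasl had passed the filter only through BD 14. These shares stand beside a choice made on this comparison and are given for scale. Averaged over the 10 genes, an array's log2 ratio was -0.47 ± 0.44 (CD 3) and -0.26 ± 0.51 (BD 3) at 3 months and 0.70 ± 0.36 (CD 14) and 1.11 ± 0.35 (BD 14) at 14 months, with SD.

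The question the diets were set up to answer is whether the BASE-diet shifts liver expression, and for these genes no such difference passed the test. At 14 months 7 of the 10 genes had a higher mean on BASE-diet, beside 56.3% of all probes, and 3 a lower one. The median difference of the 10 was 0.33 against 0.05 over all probes. None passed (limma, 0 of 10, with 0% of all probes called), and adjusted p-values lay between 0.931 and 0.994. By the brighter probe of each gene, Oasl was the 1 gene of the 10 with an unadjusted p under 0.05 by limma, where 4.60% of all probes had one. Oasl had passed the filter only through BD 14. The other probe of Usp18 had an unadjusted p of 0.0143 by limma. At 3 months 8 of the 10 genes were higher on BASE-diet, beside 53.6% of all probes, and 2 lower, with a median of 0.32 against 0.03 over all probes. By limma 0 of 10 were called (0% of all probes) and 0 had an unadjusted p under 0.05 (7.11% of all probes). Adjusted p-values lay between 0.808 and 0.972. Kupffer cell and macrophage markers were higher in BD 3 for 12 of 14, with a median of 0.68, 1 under an unadjusted p of 0.05 and 0 called, and their part was not tested. The F test with Tukey's HSD of the methods called 0 of 10 at either time, beside 0 of all probes at 3 months and 1 (0.00515%) at 14 months.

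Oasl differed by 1.39 ± 0.49 (SE) between BD 14 and CD 14, with a 95% confidence interval of 0.37 to 2.40, an unadjusted p of 0.00967 and an adjusted p of 0.931 by limma. Its ratios were at least 2.04 in BD 14 and at most 1.88 in CD 14, so that of the 10 genes it alone had no overlap, where 0.653% of all probes were higher in BD 14 without overlap. Since the probe passed the filter only through BD 14 and the reference was above background on 1 of 6 arrays there, nothing is read from this. As deposited, median Cy5 was 54.9 in BD 14 and 55.3 in CD 14, while the median of the near-background reference was 9.61 and 21.7. In the Cy5 channel alone, after quantile normalization, the difference was 1.16 ± 0.40 (adjusted p = 0.805 by limma), and with normexp and loess 0.32 ± 0.21 (adjusted p = 0.999 by limma).

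Usp18 was 1.08 ± 0.62 higher in BD 14 than in CD 14 by its brighter probe (interval -0.21 to 2.37, adjusted p = 0.952 by limma) and 1.06 ± 0.40 by the other (interval 0.23 to 1.88, unadjusted p = 0.0143, adjusted p = 0.952 by limma). Isg15 differed by 0.66 ± 0.34 (interval -0.04 to 1.37, adjusted p = 0.952 by limma). For Irf7 the difference was 0.23 ± 0.40 (interval -0.60 to 1.07) and with each array left out 0.06 (BD 14 rat 3) to 0.47 (CD 14 rat 1). For Ifit2 it was 0.54 ± 0.43 (interval -0.34 to 1.43), and 0.30 without BD 14 rat 2. Mx1 and Mx2 were nearest to 0, with -0.04 ± 0.32 (interval -0.70 to 0.62) and -0.07 ± 0.25 (interval -0.58 to 0.44). The sign of these last values turned under several alternatives. Rsad2 was lower by its mean, at -0.29 ± 0.45 (interval -1.23 to 0.65), at -0.46 without CD 14 rat 3, at -0.12 without CD 14 rat 5 and at -0.86 when blocked by slide, and turned to 0.11 in the Cy5 channel alone.

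At 3 months Rsad2 differed by -0.78 ± 0.50 in BD 3 against CD 3 (interval -1.81 to 0.25, adjusted p = 0.808 by limma), which was -0.36 without BD 3 rat 5, -0.39 without CD 3 rat 4 and turned to 0.11 with the slide as a block. Ifit2 differed by 0.68 ± 0.47 (interval -0.29 to 1.65, adjusted p = 0.826 by limma), by 1.83 with that block and by 0.23 without CD 3 rat 1. Isg15 differed by 0.25 ± 0.37 (interval -0.51 to 1.02) and Irf7 by 0.30 ± 0.44 (interval -0.62 to 1.21). With each array left out the former ran from 0.03 to 0.48 and the latter from -0.01 to 0.55. The intervals of both genes leave room for differences in either direction.

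**Figure D4:**
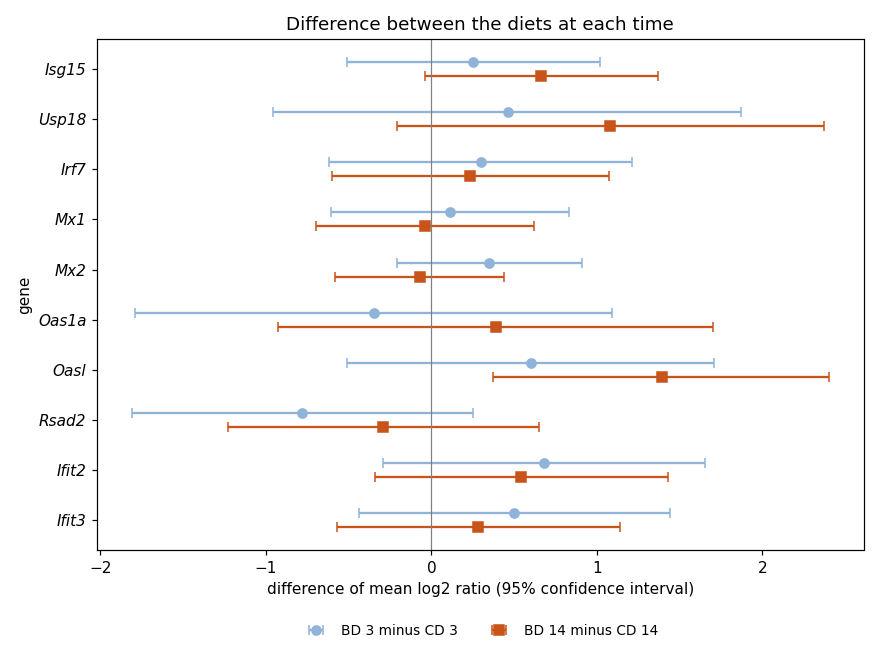
Difference of the mean log2 ratio between BASE-diet and control diet for each of the 10 genes, by its brighter probe, at 3 months (circles) and 14 months (squares), with 95% confidence intervals from the fit of all 4 groups. Only the interval of Oasl at 14 months, 0.37 to 2.40, lies clear of 0, and that gene passed the filter only through BD 14 and did not pass the adjustment over all probes.

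Whether the time difference itself depended on the diet was tested as the interaction. None of the 10 genes passed (0 of 10; 0% of all probes; 0 under an unadjusted p of 0.05, where 4.80% of all probes were), and all adjusted p-values were 0.999 by limma. The differences between the diets' time differences ran from -0.42 ± 0.37 for Mx2 to 0.79 ± 0.72 for Oasl, which passed the filter only through BD 14. Blocking by slide turned the sign for Mx2, with time differences of 0.68 on BASE-diet and -0.06 on control diet. It also turned for Usp18 (2.20 and 2.79), Oas1a (1.57 and 1.97), Rsad2 (0.05 and 1.02) and Ifit3 (0.87 and 0.45), BASE-diet first. Normexp with loess brought the time differences of Oasl to 0.58 and 0.48. Of the 14 Kupffer cell and macrophage markers 12 were below 0 in the interaction, with a median of -0.80 and 0 called, while 52.4% of all probes were above 0. The other probe of Usp18 gave 1.51 ± 0.59, with an unadjusted p of 0.0175 and an adjusted p of 0.993 by limma.

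Slides and groups were entangled, and comparisons within a slide were limited to 4. On the slide shared by 6 BD 14 and 2 CD 14 arrays, 9 of the 10 genes were higher in BD 14. The median difference was 0.52, with 1.34 for Usp18, and Rsad2 was lower (-0.86). The 9 include Oasl (1.65), which passed the filter only through BD 14, so nothing is read from its value. On the slide with 3 CD 14 and 3 BD 3 arrays, where time and diet both differ, 10 of 10 were higher in CD 14, with a median of 1.00 and 1.75 for Isg15. A single CD 14 and a single CD 3 array shared a slide and gave 8 of 10 higher in CD 14, with a median of 1.18. The slide with 2 BD 3 arrays and CD 3 rat 1 gave 7 of 10 higher in BD 3, with a median of 0.80. No share over all probes stands beside these counts within slides, so they are a description. No slide held both BD 14 and BD 3, so that comparison has no value within a slide. With the slide as a block the median time difference was 1.80 on control diet and 1.22 on BASE-diet. That block also moved the median of all probes to 0.14 on control diet and to 0.15 for BD 3 against CD 3.

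The log2 ratios of the genes did not all vary together from array to array within a group. Deviations from the group mean over the 22 arrays, which share the reference RNA and the slides, had a median Pearson r of 0.14 over the 45 pairs of the 10 genes, against -0.01 between these genes and all probes. The range was from -0.56 to 0.85, and 29 of 45 pairs were above 0. Such deviations also hold those of the reference channel. Its signal ran from 22.6 to 258 for Oas1a and from 50.5 to 451 for the brighter probe of Usp18. These signals are not scaled between arrays, and the part of each channel was not tested. Over all 22 arrays the highest values were 0.85 for Irf7 and Oas1a, 0.82 for Usp18 and Oas1a and 0.75 for Usp18 and Irf7. Leaving out CD 3 rat 1 and CD 14 rat 1, these were 0.77, 0.72 and 0.62, and Irf7 and Mx1 came to 0.76. The median over pairs without those arrays was 0.21, with 36 of 45 above 0. Among 16517 other genes, the deviations most like the mean of the 10 were those of Kansl3 (r = 0.87), the interferon-stimulated Ifi44 (r = 0.83), Arfip2 (r = 0.82), Zcchc9 (r = 0.82) and an unnamed probe, A_64_P122037 (r = 0.81). Between the times Kansl3 differed by 0.00 and -0.10 on control diet and BASE-diet, Ifi44 by 0.35 and 0.76.

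The rest of the pathway was read from lists put together with earlier results of these data known. Of 49 other interferon-stimulated genes, 46 were on the array and 44 were tested. On control diet 39 of 44 were higher at 14 months, with a median difference of 0.63, and on BASE-diet 42 of 44, with a median of 0.77, beside 0.03 and 0.07 over all probes. Of all probes 53.4% were higher on control diet and 58.6% on BASE-diet. In both diets 39 of 44 were higher, and 22 of 44 by more than 0.5, as were 4.71% of all probes. None passed the adjustment (0 called in both diets, lowest adjusted p 0.149 and 0.266 by limma), while 15 of 44 on control diet and 19 of 44 on BASE-diet had an unadjusted p under 0.05, beside 10.1% and 7.44% of all probes, all higher except 1 on BASE-diet. By the mean of both diets the largest were Ifi47, an interferon-induced GTPase (2.18 ± 0.72 and 1.73 ± 0.72), Oas1k (1.25 ± 0.69 and 1.74 ± 0.69), Ifi44l (0.90 ± 0.47 and 1.87 ± 0.47) and Herc6, a ligase that attaches ISG15 in rodents (0.90 ± 0.50 and 1.69 ± 0.50). Between the diets the median of this list was 0.14 at both times, with 0 of 44 called, and with 0 of 44 at 3 months and 4 of 44 at 14 months under an unadjusted p of 0.05 (7.11% and 4.60% of all probes).

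**Figure D5:**
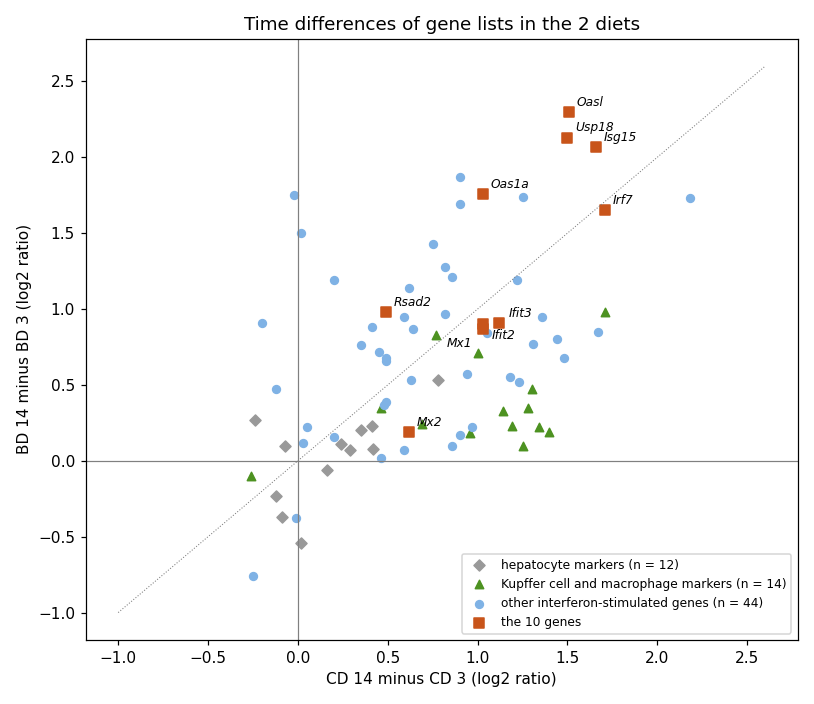
Time differences of the log2 ratio on control diet (horizontal) and on BASE-diet (vertical) for the 10 genes (squares), 44 other interferon-stimulated genes (blue circles), 14 Kupffer cell and macrophage markers (triangles) and 12 hepatocyte markers (diamonds), with equal differences along the dotted line. The macrophage markers spread along the horizontal axis, with medians of 1.17 and 0.28, while the other interferon-stimulated genes had medians of 0.63 and 0.77.

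Upstream of these genes, the medians of the lists were smaller than the 1.08 and 1.31 of the 10 genes, which were chosen on this comparison. That difference was not tested, and single genes upstream exceeded some of the 10. Of 12 ligand genes listed 5 were on the array, and Ifna4 alone was tested, with -0.19 ± 0.19 on control diet and 0.01 ± 0.19 on BASE-diet. Ifng was above background on 0 of 22 arrays, Ifnk on 1, Ifna1 on 5 and Ifnb1 on 6. Of 12 receptor and signalling genes tested, 9 were higher at 14 months on control diet and 11 on BASE-diet, with medians of 0.17 and 0.30 and 0 called. Of all probes 53.4% and 58.6% were higher. Jak2 had 0.39 ± 0.30 and 0.66 ± 0.30, and Irf9 0.20 ± 0.31 and 0.83 ± 0.31. Of 7 nucleic acid sensors tested, 5 and 6 were higher, with medians of 0.48 and 0.26 and 0 called, led by Zbp1, a sensor of left-handed nucleic acid (0.92 ± 0.47 and 1.09 ± 0.47), Dhx58 (0.64 ± 0.33 and 0.68 ± 0.33) and Ifih1 (0.65 ± 0.33 and 0.64 ± 0.33).

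Hepatocyte markers were measured as a check of the tissue label, and 12 of 12 were well above background on every array, with medians of 0.20 and 0.09 between the times on control diet and BASE-diet. Markers of Kupffer cells and macrophages also differed with time on control diet: 13 of 14 were higher in CD 14 than in CD 3, beside 53.4% of all probes, with a median of 1.17. By limma 9 of 14 had an unadjusted p under 0.05, beside 10.1% of all probes, with 0 called. On BASE-diet 13 of 14 were also higher at 14 months, beside 58.6% of all probes, with a median of 0.28. There 0 of 14 had an unadjusted p under 0.05 by limma, beside 7.44% of all probes. Their summed Cy5 signal after quantile normalization ran from 10171 to 25675 (CD 3) and from 18591 to 27484 (BD 3) at 3 months, and from 19147 to 86280 (CD 14) and from 17404 to 45274 (BD 14) at 14 months, and each of the 14 was above background on at least some arrays of every group. Vsig4 and C1qa, both typical of Kupffer cells, had 1.71 ± 0.56 and 1.28 ± 0.38 on control diet and 0.98 ± 0.56 and 0.35 ± 0.38 on BASE-diet. The part of these cells in the differences was not tested.

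Leukocyte markers were dim. Of 19 on the array 12 were tested, and Cd3e, Cd2, Cd79a, Ms4a1, Ncr1, Siglech and Itgax were above background on between 1 and 14 of 22 arrays. Of the 12, 10 were higher at 14 months on control diet and 9 on BASE-diet, with medians of 0.43 and 0.30 and 0 called. Of all probes 53.4% and 58.6% were higher. Ptprc, the common leukocyte antigen, had 1.34 ± 0.57 and 0.65 ± 0.57. Their summed Cy5 signal ran from 700 to 3121 (CD 3) and from 736 to 1125 (BD 3) at 3 months, and from 970 to 2671 (CD 14) and from 750 to 1304 (BD 14) at 14 months, and their part in the differences was not tested.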

How the data were processed

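Liver RNA of 22 rats in 4 groups was hybridised to two-colour Agilent arrays with 62976 spots for 30367 probes. The authors deposited scanner output in which the processed intensity of each channel is background-subtracted and Lowess-normalized by Agilent Feature Extraction (10.7.3.1 in the submitters' processing notes, 10.10.1.1 per the file headers, rn4 annotation). Per the file headers the log10 ratio is that of Cy5 to Cy3. The labels give Cy5 for the rat on every array, while the methods text assigns the dyes to the diets, and the labels were followed. A table holding only entries the authors found significant was not used.

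Here the log10 ratios were turned to log2, control and non-uniform spots left out, and spots of a probe averaged. Probes entered the fit if a share of 0.5 or more of their spots passed the software's well-above-background flag for Cy5 throughout 1 group or more (19434 probes, of which 698 lacked a value on some array). Groups were fitted with limma 3.58.1 in R 4.3.3 (4 group means, eBayes), adjusted by Benjamini-Hochberg over all probes, with a threshold of 0.05. A gene's main probe has the highest mean Cy5. Each list's genes are named where past the threshold, and otherwise up to 4 with the largest mean time difference. Not every gene this rule takes is reported here, and the markers not detected were named after their values were seen. Python 3.11.15, numpy 2.4.6, pandas 2.3.3, scipy 1.17.1 and matplotlib 3.10.9 served the summaries. The fit was tested on simulated data.

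The genes and lists were chosen with earlier results of these data known. Alternatives were another background correction (normexp, offset 50, with loess), the Cy5 channel alone, median centring, other detection filters, array weights, the slide or rat number as a block, only the groups compared, Tukey's HSD after the F test that the methods name, any probe of a gene, non-uniform spots kept and each array left out. Leaving out CD 3 rat 1 and CD 14 rat 1, with their many non-uniform spots, was an alternative chosen after seeing the data. Rats are separate animals per the labels.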

Additional observations from a re-analysis of the deposited data

Results flagged for a closer look

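Of 40 combinations of a gene and a group, 4 held 1 rat that lay far from the others by Dixon's test, where chance alone gives about 1 in 20. Usp18 in CD 3 rat 1 had a log2 ratio of -2.71, while the other rats of its group lay between -0.55 and 0.23. Ifit3 in the same rat was 1.71 against -1.16 to -0.35. Oas1a in CD 14 rat 1 was 3.35 against 0.84 to 1.68. Its Cy5 signal there was 656, beside 650 in CD 14 rat 6, and its Cy3 signal was the lowest of the group, 64.2. These 3 flagged ratios come from the 2 arrays of many non-uniform spots. Oasl in BD 14 rat 6 was 4.28 against 2.04 to 2.61, and the reference signal of that array was 6.69 and not well above background.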

How the results depend on the processing

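Between the diets and in the interaction, 0 of the 10 genes passed under every alternative run, the replicate block included (0 of 10 in all 3), and leaving out each array gave 0 to 0. The median time difference on control diet was 0.80 without CD 3 rat 1 and CD 14 rat 1, whose arrays had many non-uniform spots, 1.12 with the replicate block and between 0.97 and 1.28 with each array left out, but 1.80 with the slide block. On BASE-diet it was 1.30 with the replicate block and between 1.18 and 1.50 with each array left out, but 0.81 with normexp and loess. Rats of the same number did not deviate together (median r -0.0168 over 31 pairs, against -0.0239 over 150 pairs of different numbers), so the numbers do not pair the arrays. The cause of these shifts was not tested.

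Signs between the diets turned for 7 of the 10 genes under some alternative, none of them called. For BD 3 against CD 3, the slide block gave -0.45 for Mx2, 0.96 for Oas1a, 0.11 for Rsad2 and -0.32 for Ifit3, normexp gave 0.00 for Oas1a and -0.03 for Ifit3, the Cy5 channel alone gave 0.67 for Oas1a, and for Usp18 the other probe gave -0.46 and leaving out the 2 arrays -0.04. For BD 14 against CD 14, the slide block gave 0.01 for Mx1 and 0.29 for Mx2, the slide as a random block 0.01 and 0.06, the Cy5 channel alone 0.26 for Mx2, 0.11 for Rsad2 and -0.28 for Ifit3, normexp 0.00 for Ifit3, and leaving out the 2 arrays 0.04 for Mx2. With each array left out, BD 3 against CD 3 ranged from -0.04 to 0.81 for Usp18, -0.01 to 0.55 for Irf7, -0.06 to 0.36 for Mx1 and -1.03 to 0.01 for Oas1a, and BD 14 against CD 14 from -0.24 to 0.08 for Mx1 and -0.17 to 0.04 for Mx2.

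The number of arrays limits the precision of all values. Over all probes the count of 0 also moved. For BD 3 against CD 3 it was 192 higher and 29 lower in the Cy5 channel alone and 88 higher and 5 lower without CD 3 rat 5. Without that rat CD 14 against CD 3 gave 183 higher and 22 lower, Isg15 and Irf7 among them, and array weights gave 73 higher and 26 lower for BD 14 against BD 3, Isg15 and Oasl among them. The genes were selected on these time comparisons, and Oasl entered the fit only through BD 14, so the calls are a description only. Further alternatives passed Irf7 on control diet (the Cy5 channel alone, 7 higher and 3 lower over all probes), Oasl on BASE-diet (the same channel, 5 and 1), and Isg15 on BASE-diet (the strict filter, 2 and 0, and leaving out CD 3 rat 4, 4 and 1, or BD 14 rat 2, 2 and 0).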
